A study of Homo sapiens with 18 samples.

Results

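The miR-15/16 and miR-29 families are 2 groups of microRNAs (miRNAs) known for restraining cell growth. Their rows were taken by name from the deposited small RNA tables: miR-15a-5p, miR-15b-5p, miR-16-5p, miR-195-5p, miR-424-5p and miR-497-5p for the miR-15/16 family, and miR-29a-3p, miR-29b-3p and miR-29c-3p for the miR-29 family. These are 9 of the 2167 mature miRNAs listed. The 9 members were chosen with earlier results of these data known. They were followed in wild-type HCT116 cells, an established epithelial line from a human colorectal carcinoma with no other treatment named in the labels. Whole cell RNA was taken on day 3 at 50% confluency, on day 5 at 250% and on day 7 at 400%, with 3 small RNA libraries a day that the labels call biological replicates. Whole transcriptome libraries of day 3 and day 5, 3 of each, gave the messenger RNAs of the same cell line and days, while those of day 7 were not analysed here. The labels do not say whether both kinds of library came from the same cultures. All groups are of 1 cell line, and day after seeding and cell density rise together, so that time and density cannot be told apart.

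A miRNA guides an Argonaute protein to messenger RNAs, mostly by pairing of its bases 2 to 8, the seed, with the 3′UTR. miRNAs with 1 seed form a family because they can bind the same sites. The miR-15/16 family is a textbook brake on the G1 phase, acting on cyclins D and E, CDC25A and CHEK1, and on the survival protein BCL2, and loss of its locus within DLEU2 is a hallmark of chronic lymphocytic leukemia. The miR-29 family is best known for holding down collagens and other matrix proteins and the enzymes that write and erase DNA methylation, and it is lower in many tumors and in fibrosis.

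The mature sequences of the miR-15/16 members are shown because the family is defined by them, with the seed in capitals (RefSeq, GRCh38.p14).
miR-15a-5p: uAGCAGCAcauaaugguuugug
miR-15b-5p: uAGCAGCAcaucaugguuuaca
miR-16-5p: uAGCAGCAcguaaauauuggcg
miR-195-5p: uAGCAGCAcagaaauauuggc
miR-424-5p: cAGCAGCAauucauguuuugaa
miR-497-5p: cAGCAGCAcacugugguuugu
The miR-29 members follow in the same form.
miR-29a-3p: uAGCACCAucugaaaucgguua
miR-29b-3p: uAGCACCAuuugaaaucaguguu
miR-29c-3p: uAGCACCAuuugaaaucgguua

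The families' seeds differ by the single change G6C, counted from the 5′ end of the mature miRNA and with the miR-15/16 base first. Within the miR-15/16 family, miR-16-5p and miR-195-5p are the closest pair, equal at 19 of 21 positions with the differences G10A and U11G. miR-16-5p and miR-497-5p share 11 of 21 positions. In the miR-29 family, miR-29a-3p and miR-29c-3p differ by C10U alone. How reads with mismatches were assigned is not given in the sources used here, so that a small share of a scarce member's value could belong to its abundant neighbor, and this was not tested. miR-6838-5p also carries the miR-15/16 seed, but its deposited log2 value was between -0.22 and 0.23 in all 9 libraries, near the bottom of the scale.

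The 9 miRNAs come from 11 hairpins at 6 loci. MIR15A (mature miR-15a-5p at chr13:50049167-50049188, minus strand) and MIR16-1 lie in the long noncoding RNA gene DLEU2, the former overlapping an exon and the latter in an intron. MIR15B (chr3:160404607-160404628, plus strand) and MIR16-2 lie in an intron of SMC4, a condensin subunit. MIR195 (chr17:7017667-7017687, minus strand) and MIR497 (chr17:7017979-7017999) overlap exons of MIR497HG, and the hairpin of MIR424 (mature part at chrX:134546680-134546701, minus strand) overlaps the start of MIR503HG only in part. MIR29A (chr7:130876748-130876769, minus strand) and MIR29B1 lie within LINC-PINT, and MIR29C (chr1:207801865-207801886, minus strand) and MIR29B2 within MIR29B2CHG. miR-16-5p and miR-29b-3p are each made from 2 hairpins with the same mature sequence, which the values cannot tell apart. Coordinates are those of GRCh38 with GENCODE release 44.

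The small RNA values are normalized log2 values whose exact transform is not named, and the read count of each library is not in the values used here, so that no counting error is given. Back-transformed and summed over all miRNAs, they gave totals of 1542087 to 1947371 a library on day 3, 1712225 to 1884026 on day 5 and 2452607 to 2600754 on day 7. Replicate 3 of day 3 had the lowest of the 9 totals. Differences are therefore given on the scale of the deposited values and again after division by these totals, where each miRNA is a share of its own library. The whole transcriptome libraries held 27470978 to 56689369 reads on genes. In them the 5 epithelial markers looked for (EPCAM, CDH1, KRT8, KRT18, KRT19) had normalized values from 572 to 39827, and 4 of the 5, all but EPCAM, were higher on day 5. The leukocyte marker PTPRC was at 2.14 or less and the fibroblast gene COL3A1 at 31.1 or less, while ACTA2 of smooth muscle rose from a mean of 64.7 to 149; the part of these changes in any result below was not tested.

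The members spanned a wide range of levels, from 29.6 to 20067 parts in 1000000 of the library's miRNA total (CPM). Levels of different miRNAs carry the unequal ligation of sequences in library making, so that their order is approximate. miR-16-5p (HSA-MIR-16-5P in the tables), the most abundant of its family, was at log2 values of 15.19, 15.25 and 14.87 on day 3, 15.03, 15.14 and 14.99 on day 5, and 15.37, 15.34 and 15.29 on day 7. miR-29a-3p (HSA-MIR-29A-3P) was close to it, at 15.05, 15.16 and 14.72, then 14.90, 14.95 and 14.87, then 15.43, 15.51 and 15.50. For both miRNAs the day 7 values were above all those of the other days. On day 3 the groups of miR-16-5p and miR-29a-3p overlapped, with miR-16-5p the higher in 3 of 3 libraries. By day 7 the order had turned, with miR-29a-3p the higher in 3 of 3 libraries and the groups apart.

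In the middle range stood miR-15a-5p (HSA-MIR-15A-5P), at 11.07, 11.12 and 10.83 on day 3, 10.96, 11.03 and 10.93 on day 5, and 11.34, 11.36 and 11.39 on day 7. miR-15b-5p (HSA-MIR-15B-5P) was at 10.71, 10.72 and 10.50, then 10.49, 10.63 and 10.52, then 10.68, 10.74 and 10.72. While miR-15a-5p was highest on day 7, the day 7 values of miR-15b-5p overlapped those of day 3. miR-29b-3p (HSA-MIR-29B-3P) was at 10.68, 10.79 and 10.21, then 10.53, 10.58 and 10.52, then 11.14, 11.26 and 11.16. miR-29c-3p (HSA-MIR-29C-3P) was at 9.20, 9.32 and 8.89, then 9.13, 9.19 and 9.09, then 9.52, 9.53 and 9.44. Both were higher in every day 7 library than in any other. miR-15b-5p and miR-29b-3p overlapped on day 3 and on day 5, and on day 7 miR-29b-3p stood above miR-15b-5p.

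The scarcest members were miR-195-5p, miR-424-5p and miR-497-5p. miR-195-5p (HSA-MIR-195-5P) was at 6.39, 6.51 and 6.31 on day 3, 6.53, 6.54 and 6.30 on day 5, and 7.12, 7.07 and 7.20 on day 7. miR-497-5p (HSA-MIR-497-5P), from the same locus, was at 6.39, 6.23 and 5.82, then 6.20, 6.26 and 6.19, then 6.88, 6.84 and 6.90. Both were above all earlier values on day 7 and overlapped between day 3 and day 5. miR-424-5p (HSA-MIR-424-5P) was at 6.30, 6.32 and 6.16, then 5.83, 6.09 and 5.98, then 6.23, 6.27 and 6.48, so that its day 5 values were its lowest. The 3 overlapped on day 3 at least between neighbors in level, and on day 7 they stood apart in the order miR-195-5p, miR-497-5p, miR-424-5p. Replicate 3 of day 3 was the lowest day 3 library for all 9 members.

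**Figure D1:**
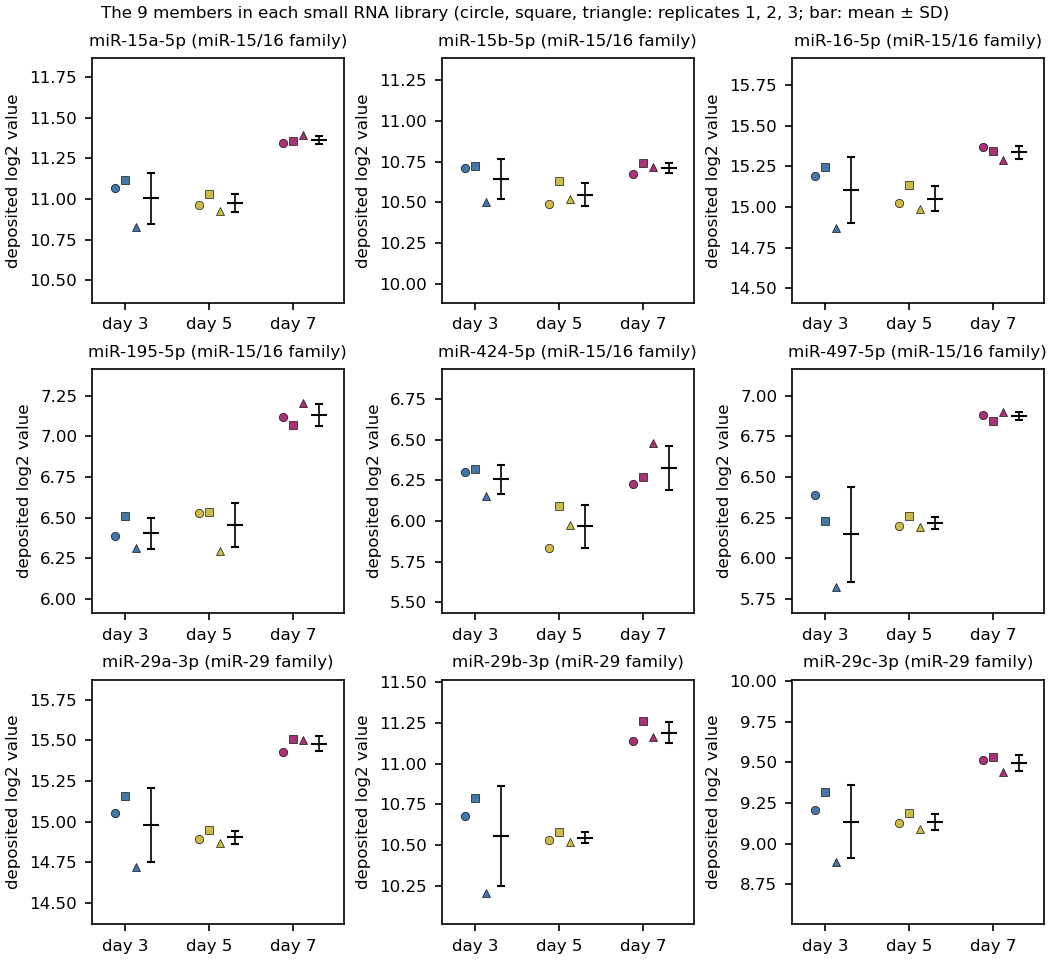
Deposited log2 values of the 9 members (vertical axis, each panel spanning the same range) by day, with 1 point for each small RNA library and the mean ± SD beside it. On day 7, 7 members lie above all their day 3 values; miR-15b-5p and miR-424-5p do not.

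From day 3 to day 5, while the cultures grew from a sparse layer to crowding, no clear change was seen in either family on the deposited scale. None of the 9 members passed the test, against 80 of 539 miRNAs tested (14.8%, of which 8.53% were higher and 6.31% lower; limma with Benjamini-Hochberg adjustment, threshold 0.05). At an unadjusted p under 0.05 there was 1 member, miR-424-5p, and every difference was between -0.29 and 0.07. The median over the members was -0.03, and over all tested miRNAs 0.07. The widest was that of miR-424-5p, which differed by -0.29 ± 0.11 (log2, SE; adjusted p = 0.129, limma) with its 3 day 5 values below the 3 of day 3, as in 11.3% of all miRNAs. No member had all its day 5 values above those of day 3, beside 22.6% of all miRNAs. On library totals, miR-424-5p fell by 0.30 on the log2 scale (SE 0.07, adjusted p = 0.0313, limma), from 42.2, 40.9 and 46.2 CPM to 33.3, 36.3 and 35.6 CPM, and it was the 1 member called of 9, beside 11.7% of all miRNAs lower and 13.4% higher. That call was lost, at an adjusted p of 0.0566 to 0.097, when any library but replicate 3 of day 3 was left out.

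By day 7 the members spread over a range of differences. On the deposited scale 6 of 9 were higher than on day 3 and none lower, beside 300 of 559 miRNAs called (53.7%; 45.3% higher and 8.41% lower). The median difference was 0.36 for the members and 0.30 for all tested miRNAs. The largest differences were those of miR-195-5p (0.73 ± 0.10, adjusted p = 0.00081) and miR-497-5p (0.73 ± 0.15, adjusted p = 0.00451), followed by miR-29b-3p (0.63 ± 0.16, adjusted p = 0.00986) and miR-29a-3p (0.50 ± 0.13, adjusted p = 0.0123). miR-15a-5p and miR-29c-3p each rose by 0.36 with adjusted p-values of 0.0249 and 0.0457. miR-16-5p had a difference of 0.23 ± 0.12 (adjusted p = 0.146) although its groups did not overlap, and miR-15b-5p and miR-424-5p had 0.07 each (limma, SE throughout). Of the 9 members, 7 had all day 7 values above those of day 3, as had 55.8% of all miRNAs.

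The choice of scale decided the direction of several members. Dividing by library totals moved the median of all tested miRNAs from 0.30 to -0.20. On that scale no member was higher on day 7, and 3 were lower, beside 57.1% of all miRNAs called, 16.6% higher and 40.4% lower. miR-15b-5p fell by 0.44 (log2, SE 0.06, adjusted p = 0.00214), from 898, 866 and 942 CPM to 667, 657 and 676 CPM. miR-424-5p fell by 0.43 (SE 0.10, adjusted p = 0.0114) to 30.5, 29.6 and 35.8 CPM. miR-16-5p fell by 0.27 (SE 0.06, adjusted p = 0.0119), from 20067, 19992 and 19468 CPM to 17277, 16002 and 16081 CPM. Without replicate 3 of day 3, miR-195-5p was called higher on this scale too (adjusted p = 0.0293), as was miR-497-5p without replicate 1 of day 3 (adjusted p = 0.0293). Thus the 3 members called lower on library totals were those not called on the deposited scale, and the 6 called higher there were not called on library totals.

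Relative to all tested miRNAs, which does not depend on the scale, the order of the members on day 7 was the same. miR-195-5p and miR-497-5p stood 0.42 above the median difference, miR-29b-3p 0.33 above and miR-29a-3p 0.20 above. miR-15a-5p and miR-29c-3p were within 0.06 of it, miR-16-5p was at -0.07, and miR-15b-5p and miR-424-5p were both at -0.24. Without the filter on low values, miR-195-5p alone of the 9 passed on the deposited scale (adjusted p = 0.00641), the others being at 0.0552 or more. Leaving out any 1 library of day 7, or replicate 1 of day 3, took the call from miR-29c-3p, and leaving out any 1 of day 7 took it from miR-15a-5p, for 4 to 6 calls in all.

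**Figure D2:**
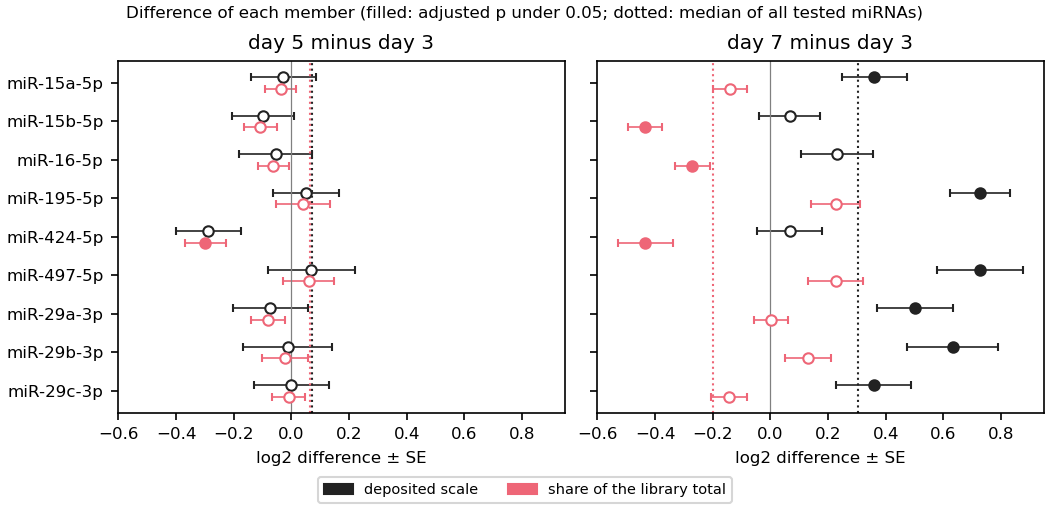
Log2 difference ± SE of each member on day 5 and day 7 against the shared day 3 libraries, as deposited (black) and divided by library totals (red), filled where the adjusted p-value was under 0.05; dotted lines give the median of all tested miRNAs on each scale. On day 7 every red point lies below its black one by the same step, and miR-195-5p, miR-497-5p and miR-29b-3p are the members farthest above the medians.

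Both comparisons above share the day 3 libraries. Day 7 against day 5 does not use them as the reference, although they entered the estimate of the spread, and in it 7 of 9 members were higher and none lower on the deposited scale, beside 44.3% of 567 miRNAs called, 39.3% higher and 4.94% lower. All 9 had day 7 values above every day 5 value, as had 53.3% of all miRNAs. miR-195-5p differed by 0.68 ± 0.10 (adjusted p = 0.000896, limma), miR-497-5p by 0.66, miR-29b-3p by 0.64 and miR-29a-3p by 0.58, all past the threshold. miR-424-5p, low on day 5, had 0.36 ± 0.11 (adjusted p = 0.0213). Its call was lost with median centring (0.17, adjusted p = 0.178) and with no filter on low values (adjusted p = 0.073), as was that of miR-29c-3p (0.17, adjusted p = 0.106, and with no filter 0.0988). miR-16-5p had 0.28 (adjusted p = 0.0569) and miR-15b-5p 0.16 (adjusted p = 0.156). The number called was 5 to 9 with 1 library left out. miR-29c-3p lost its call without replicate 1 or 3 of day 5 or replicate 1 or 2 of day 7, and miR-424-5p without replicate 1 or 3 of day 5 or replicate 3 of day 7. Without replicate 3 of day 3 both miR-16-5p and miR-15b-5p passed (adjusted p of 0.00536 and 0.0441), and miR-16-5p also without replicate 2 of day 3 and with the 6 libraries of both days alone (0.0489 and 0.00988). On library totals, 2 members were lower (of all miRNAs 43.4% were lower and 10.6% higher): miR-15b-5p fell by 0.33 and miR-16-5p by 0.21 on the log2 scale (adjusted p of 0.0016 and 0.0124).

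The share of the miRNA total held by a family does not depend on the scale between libraries. The miR-15/16 family held 2.22%, 2.21% and 2.17% on day 3, 2.16%, 2.12% and 2.04% on day 5 and 1.91%, 1.78% and 1.80% on day 7. Its mean share was thus 2.20% ± 0.03, 2.11% ± 0.06 and 1.83% ± 0.07 (SD, n = 3), with no overlap between any of the days. On library totals the median log2 difference of all tested miRNAs was -0.20 for day 7 against day 3 and -0.24 against day 5. For day 5 against day 3 it was 0.06. Of all miRNAs, 40.4% were called lower on day 7 than on day 3, so that a lower share was not particular to this family. The percentage of all miRNAs with no overlap on this scale is not given here. The miR-29 family held 1.94%, 2.00% and 1.86%, then 1.90%, 1.79% and 1.81%, then 1.92%, 1.91% and 1.98%. Its share on day 7 overlapped that of day 3, with a mean difference of 0.00534 percentage points, and was above that of day 5. In an exact permutation test of 3 libraries against 3, two-sided, p cannot go below 0.1, and the miR-15/16 comparisons and the miR-29 comparison of day 7 with day 5 gave that value (adjusted p = 0.15 over 6 tests).

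miR-16-5p made up 90.1% ± 0.4 of the miR-15/16 sum on day 3 and 89.9% ± 0.4 on day 7, and miR-29a-3p 94.0% ± 0.2 and 93.7% ± 0.2 of the miR-29 sum (SD, n = 3). The family shares are therefore mostly those of these miRNAs. Within the miR-15/16 sum, miR-195-5p went from 0.217% ± 0.019 to 0.305% ± 0.021 and miR-497-5p from 0.182% ± 0.018 to 0.255% ± 0.009, while miR-15b-5p went from 4.10% ± 0.22 to 3.65% ± 0.14. The log2 ratio of the miR-29 sum to the miR-15/16 sum was -0.19, -0.15 and -0.22 on day 3, -0.19, -0.24 and -0.18 on day 5, and 0.00, 0.11 and 0.14 on day 7. The miR-29 family thus went from 0.877 times the miR-15/16 family to 1.06 times, with no overlap between day 7 and the earlier days (exact permutation p = 0.1, adjusted p = 0.167 over 45 tests of 15 ratios).

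**Figure D3:**
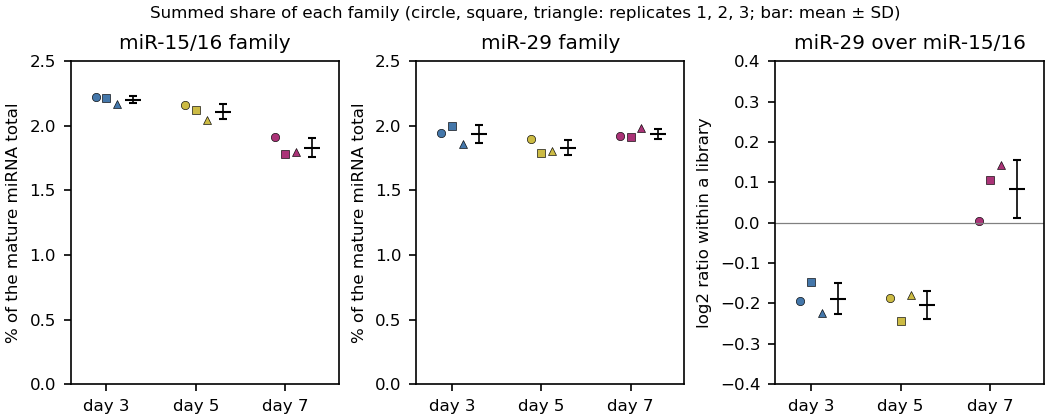
Percent of each library's mature miRNA total held by the miR-15/16 family (left) and the miR-29 family (middle), and the log2 ratio of the second to the first (right), by day, with 1 point a library and mean ± SD. The miR-15/16 share is 2.20% on day 3 and 1.83% on day 7, while the miR-29 share stays between 1.79% and 2.00%, and the ratio lies at or above 0 on day 7 alone. The median log2 difference of all tested miRNAs on library totals was -0.20 for day 7 against day 3.

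Ratios between members of 1 library put a finer grain on this. Of the 45 comparisons of 15 ratios between days, 27 had no overlap, each with the smallest exact p of 0.1 (adjusted p = 0.167), so that none can pass the threshold by this test. The pairs were chosen after the data had been seen, and many of them share a member. How often ratios of other miRNAs had no overlap is not given here, so that the 27 are a description only. miR-15a-5p exceeded miR-15b-5p by log2 ratios of 0.36, 0.40 and 0.32 on day 3, 0.47, 0.41 and 0.41 on day 5, and 0.67, 0.62 and 0.67 on day 7. miR-15a-5p comes from the DLEU2 locus and miR-15b-5p from the SMC4 locus, both of which also hold a miR-16 hairpin, and the former went from 1.28 to 1.57 times the latter. The ratio of miR-195-5p to miR-15b-5p went from a mean of -4.24 ± 0.07 to -3.58 ± 0.08 (SD, n = 3), the widest shift from day 3 to day 7 among the 15. miR-195-5p and miR-497-5p, which share a transcript, kept the same mean ratio, 0.26 on day 3, 0.24 on day 5 and 0.26 on day 7, although on day 3 it ranged from -0.00 to 0.49.

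Among the miR-29 members, miR-29b-3p stood at log2 ratios of 1.47, 1.47 and 1.32 to miR-29c-3p on day 3, and at 1.62, 1.73 and 1.73 on day 7. miR-29a-3p to miR-29b-3p went the other way, from 4.38, 4.37 and 4.51 to 4.29, 4.24 and 4.34, with the groups of all 3 days apart. Since miR-29b-3p comes from both miR-29 loci, while miR-29a-3p and miR-29c-3p each come from 1, no locus can be assigned to these shifts.

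The other arm of each hairpin, the passenger strand, was looked at next. The arms of miR-15a, miR-16-1, miR-195, miR-497, miR-29b-2 and miR-29c were too scarce to pass the filter on low values (a back-transformed value of at least 10 in 3 libraries). miR-15b-3p was at 9.93, 9.94 and 9.91 on day 3, 9.70, 9.77 and 9.64 on day 5, and 9.54, 9.57 and 9.41 on day 7. It was lower on day 7 by 0.42 on the log2 scale (SE 0.10, adjusted p = 0.00789, limma), and on library totals it fell by 0.92 (SE 0.10, adjusted p = 0.00109), whereas miR-15b-5p was called on library totals alone. The log2 ratio of miR-15b-5p to miR-15b-3p went from 0.72 ± 0.11 to 0.85 ± 0.05 and 1.20 ± 0.09 (SD, n = 3), that is from 1.64 to 2.30 times, with no overlap between days.

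For miR-29a both arms were called on the deposited scale, and neither on library totals (miR-29a-5p 0.059 with an adjusted p of 0.571, miR-29a-3p 0.0007 with 0.991). miR-29a-5p rose by 0.56 ± 0.14 on day 7 (adjusted p = 0.00972, limma), near the 0.50 of miR-29a-3p, and their ratio overlapped between all days, at 8.23 ± 0.16, 8.10 ± 0.08 and 8.17 ± 0.04. miR-29b-1-5p had a difference of 0.20 ± 0.11 (adjusted p = 0.166), and the ratio of miR-29b-3p to it was 4.32 ± 0.32 on day 3 and 4.76 ± 0.07 on day 7. miR-16-2-3p was at -0.11 ± 0.11 (adjusted p = 0.415; on library totals it fell by 0.61 with an adjusted p of 0.00954), and the ratio of miR-16-5p to it was 8.49 ± 0.27 and 8.83 ± 0.01. Both of these ratios set a miRNA of 2 hairpins against an arm of 1. miR-424-3p had 0.15 ± 0.12 (adjusted p = 0.307), and its ratio to the guide arm overlapped between days.

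**Figure D4:**
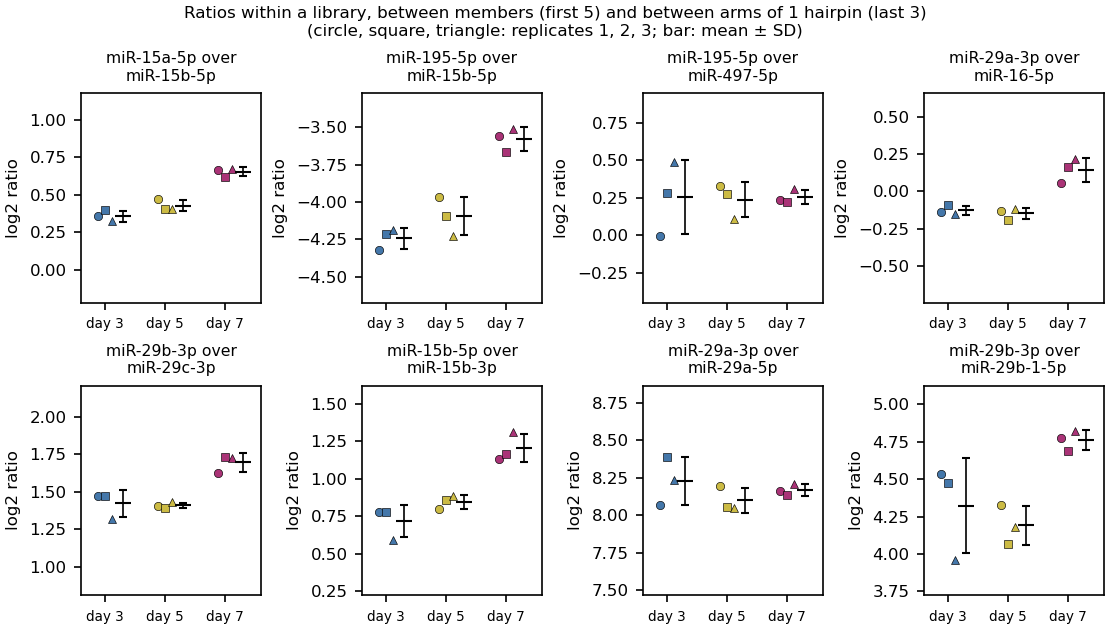
Log2 ratios within a library by day, 5 between members and 3 between arms, with 1 point a library and mean ± SD. All panels span the same range. miR-29b-3p comes from both MIR29B1 and MIR29B2, and miR-29b-1-5p from MIR29B1 alone. miR-195-5p over miR-15b-5p and miR-15b-5p over miR-15b-3p have the widest steps shown from day 3 to day 7. miR-195-5p over miR-497-5p and miR-29a-3p over miR-29a-5p overlap between all days.

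MIR424 lies in a cluster with the miRNAs miR-503, miR-450a, miR-450b and miR-542. miR-450a-5p was at 7.34, 7.34 and 6.94 on day 3, 6.54, 6.79 and 6.59 on day 5, and 6.84, 6.74 and 6.68 on day 7. It was lower by 0.57 on day 5 (SE 0.14, adjusted p = 0.032) and by 0.45 on day 7 (SE 0.14, adjusted p = 0.0217; limma), and by 0.57 and 0.96 on library totals (adjusted p of 0.0033 and 0.000489). On the deposited scale the day 5 call was lost without any 1 library other than replicate 3 of day 3, with an adjusted p up to 0.113, and the day 7 call was lost in 4 of 6 such fits, up to 0.0737. miR-450b-5p and miR-542-3p were not called on the deposited scale, with differences on day 7 of -0.19 and 0.28, while miR-450b-5p fell by 0.69 on library totals (adjusted p = 0.00124). miR-503-5p was at 3.25 or less and did not pass the filter. The log2 ratio of miR-424-5p to miR-450a-5p went from -0.95 ± 0.14 on day 3 through -0.67 ± 0.05 to -0.43 ± 0.21 by day 7 (SD over 3 libraries), so that the members of the cluster did not keep 1 ratio.

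Among 455 miRNAs averaging at least 10 CPM, the 3 whose log2 values followed the miR-15/16 sum most closely over the 9 libraries were miR-25-3p (Pearson r = 0.984), miR-340-5p (0.982) and miR-181c-3p (0.979). For the miR-29 sum they were miR-27b-3p (0.995), miR-151a-5p (0.992) and miR-301b-3p (0.992). All these values share the library totals. On library totals miR-25-3p stayed first for the miR-15/16 family (0.984), followed by miR-148a-5p and miR-577, while the highest r for the miR-29 family was 0.864, with miR-429, ahead of miR-27b-3p (0.852).

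The host transcripts of the hairpins were measured on day 3 and day 5 in the whole transcriptome libraries (normalized values per gene, limma on log2(value + 1), which understates changes of weak genes). DLEU2, host of miR-15a and miR-16-1, was at 1442, 1450 and 1178 on day 3 and 619, 601 and 683 on day 5. It fell by 1.09 on the log2 scale (SE 0.11, adjusted p = 0.000597), with no overlap, while miR-15a-5p differed by -0.03 ± 0.11 in the small RNA libraries of the same days. SMC4, host of miR-15b and miR-16-2, was at 10141, 10526 and 10105 and then 8411, 8388 and 8986. It fell by 0.26 (SE 0.07, adjusted p = 0.0263), a call that was lost on library totals (adjusted p = 0.109) and without any 1 of 3 libraries (replicate 2 of day 3, and replicates 1 and 2 of day 5; adjusted p = 0.085 to 0.0927). Of all 20129 genes tested, 56.9% were called, 29.3% higher and 27.6% lower, with a median difference of 0.01. The share of all genes with no overlap between the days is not given here, so that non-overlap does not set a gene apart.

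MIR29B2CHG, the host of miR-29b-2 and miR-29c, was at 778, 703 and 682 and then at 599, 639 and 653 (difference -0.19 ± 0.09, adjusted p = 0.106). LINC-PINT, which spans miR-29a and miR-29b-1 and was looked up after the list was made, was at 2530, 2384 and 2056 and then at 2053, 2274 and 2430 (-0.04 ± 0.11, adjusted p = 0.769). MIR503HG was at 20.4 or less in every library and not called, and MIR497HG, host of miR-195 and miR-497, was at 9.66 or less, under the filter. Of the 4 host genes tested, 2 were lower and none higher, beside 27.6% and 29.3% of all genes. The 2 called are near the 56.9% of all genes called, and the call of SMC4 was lost under several settings. Host transcripts of day 7 were not analysed here.

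Known targets of both families were read in the same libraries. The lists of targets and regulators were chosen with earlier results of these data known. Their counts beside those of all genes are therefore descriptions only. Of the tested genes with a 3′UTR, 65.8% were called, 37.8% higher and 28.1% lower, with a median of 0.12. A site pairs with the seed through TGCTGCT (miR-15/16) or TGGTGCT (miR-29), or through GCTGCTA or GGTGCTA, where the target has an A opposite base 1; an 8-mer, TGCTGCTA or TGGTGCTA, holds both. Sites were sought on the sense strand of the 3′UTR of 1 transcript a gene (GENCODE 44, GRCh38), and a 7-mer or 8-mer was found in 27.9% of 13047 tested genes for miR-15/16 and in 19.1% for miR-29, 8-mers in 4.78% and 3.54%. A match is a description of the sequence only. The sites below, with 22 bases each and the matching bases in capitals, belong to the genes with which the results are described: the first 8-mer of the 3′UTR or, where there was none, the first 7-mer.
CCND1, chr11:69653301-69653322, plus strand: tctttcacattgttTGCTGCTA
CDC25A, chr3:48158264-48158285, minus strand: tgtggtactggggcTGCTGCTA
CHEK1, chr11:125655344-125655365, plus strand: cctggtgaatatagTGCTGCTA
KIF23, chr15:69448224-69448245, plus strand: gttttataaacaaaTGCTGCTA
IGF1R, chr15:98958154-98958175, plus strand: gactgcccctgctgTGCTGCTc
DNMT3A, chr2:25233410-25233431, minus strand: acccgacttcataaTGGTGCTt
TET3, chr2:74105411-74105432, plus strand: tctcacaaaataacTGGTGCTA
COL1A1, chr17:50184572-50184593, minus strand: ggggagggaatcacTGGTGCTA
LAMC1, chr1:183144239-183144260, plus strand: attatctgacacacTGGTGCTA
NREP, chr5:111730360-111730381, minus strand: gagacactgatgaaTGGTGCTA

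The list of miR-15/16 cell cycle targets holds genes that drive the cycle and genes that restrain it, such as CHEK1, WEE1 and E2F7. Of its 13 genes 12 were tested, and 6 were called, a share near the 56.9% of all genes. On day 5, 5 were lower and 1 was higher, beside 27.6% and 29.3% of all genes, with a median of -0.18 beside 0.01. CHEK1, the checkpoint kinase with an 8-mer near the start of its 3′UTR, was at 4501, 4466 and 4626 on day 3 and 2295, 2221 and 2440 on day 5, a fall by 0.97 (log2, SE 0.08, adjusted p = 0.000281, limma). KIF23, a kinesin of cytokinesis, was at 6589, 6742 and 6982 and then 3648, 3496 and 3598, a fall by 0.92 (adjusted p = 0.000279). CDC25A, the phosphatase that activates CDK2, was at 1587, 1751 and 1969 and then 1121, 877 and 947, a fall by 0.85 (adjusted p = 0.00235). These groups did not overlap, for which the share of all genes is not given here. CCNE1, cyclin E1, and E2F7 fell by 0.61 and 0.29; both were called with an adjusted p of 0.0163 and 0.0272 and both calls were lost without replicate 2 of day 5 (0.0519 and 0.095), that of E2F7 also on library totals (0.0731) and without 3 other libraries.

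CCND1, cyclin D1, was the only one called higher, at 8495, 11298 and 12109 on day 3 and 25852, 23371 and 24870 on day 5. It rose by 1.23 ± 0.15 (2.35-fold, adjusted p = 0.000946, limma). Its 3′UTR holds 2 sites, 1 of them an 8-mer. CCND3, CDK6, WEE1, E2F3, BMI1 and PPM1D were not called, with differences from -0.58 to 0.24, and CCND2 was at 6.43 or less, under the filter. BMI1 and CDK6 passed with edgeR on the recovered reads (adjusted p of 0.000982 and 0.0117) and with DESeq2, BMI1 also without replicate 3 of day 3 (0.004) and CDK6 on library totals (0.0391).

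Of the miR-15/16 targets of survival and growth factor signaling, 8 of 11 were higher and 1 was lower, beside 29.3% and 27.6% of all genes, with a median of 0.62. IGF1R, the receptor of insulin-like growth factor 1, was at 509, 529 and 527 on day 3 and 1760, 1902 and 1836 on day 5 (1.81 ± 0.07, 3.51-fold, adjusted p = 0.000117). INSR, the insulin receptor, with 5 sites as IGF1R, was at 874, 969 and 981 and then 3311, 3427 and 3230 (1.82 ± 0.08, adjusted p = 0.00014). VEGFA, the angiogenic factor, which holds an 8-mer of each family, was at 1469, 1442 and 1371 and then 4597, 4703 and 4181 (1.65 ± 0.08). In all 3 the days did not overlap, again with no share of all genes given beside it. FGFR1, MAP2K1, SMURF1, SMAD7 and MCL1, a BCL2 relative in which no miR-15/16 match was found, rose by 0.50 to 0.78. The call of SMAD7 was lost in 4 of 6 fits without 1 library. FGF2, with 5 sites, 3 of them 8-mers, fell by 0.86 (SE 0.15, adjusted p = 0.00425), from 478, 519 and 367 to 257, 222 and 265. BCL2, the best known target, was at 117, 106 and 72.3 and then 93.3, 76.1 and 107, with a difference of -0.08 ± 0.22. RECK, an inhibitor of matrix proteases, was not called (-0.40), though it passed without replicate 3 of day 3 (adjusted p = 0.0413) and with edgeR (0.0115).

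Of the 7 miR-29 targets that write or erase DNA methylation, 4 were higher and 1 was lower, beside 29.3% and 27.6% of all genes, and the median was 0.61. DNMT3A, a de novo methyltransferase with 5 sites, was at 535, 480 and 533 on day 3 and 883, 811 and 839 on day 5 (0.71 ± 0.08, adjusted p = 0.00087). TET3, a dioxygenase that oxidizes methylcytosine, with 12 sites the most of all genes listed, was at 1579, 1759 and 1582 and then 2889, 2684 and 2659 (0.74 ± 0.08, adjusted p = 0.000781). TET1 and DNMT1 rose by 0.64 and 0.61, the latter with no site found. TDG, the glycosylase that removes oxidized methylcytosine, went the other way, from 2100, 2042 and 2098 to 1142, 1152 and 1130, a fall by 0.87 (adjusted p = 0.000284), and it holds 3 sites. DNMT3B and TET2, with differences of -0.14 and 0.07, were not called. The list thus moved in both directions, also among genes with matches.

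Of the 15 matrix targets of miR-29, the other signature of that family, only 9 passed the filter in these epithelial cells: COL4A1, COL4A2, COL15A1, ELN, NID1 and MMP2 were at 12.4 or less. Of the 9, 5 were called, a share near the 56.9% of all genes, 4 of them higher and 1 lower, with a median of 0.37. LOXL2, a lysyl oxidase that crosslinks collagen, rose most, from 263, 286 and 323 to 2584, 3173 and 3298 (3.37 ± 0.13, 10.3-fold, adjusted p = 0.000108). LAMC1, the laminin γ1 chain, was at 1756, 2300 and 2454 and then 6648, 6954 and 7258 (1.69 ± 0.14, adjusted p = 0.000326). COL1A1 was at 566, 512 and 483 and then 1092, 1156 and 1138 (1.12 ± 0.09, adjusted p = 0.000289). For each of the 3 the days did not overlap, with no share of all genes given beside it. COL1A2, the partner chain of COL1A1, was at 9.76 to 26.9 in all libraries and was not called. COL5A2 (0.61) and SPARC (-1.06) were called, the former lost without any 1 of 3 libraries, replicate 2 of day 3 and replicates 2 and 3 of day 5 (adjusted p up to 0.0687). SPARC was lost without any 1 of 3 others, replicates 1 and 3 of day 3 and replicate 3 of day 5 (up to 0.0805), and with DESeq2 on the recovered reads (0.0828). COL3A1, COL5A1 and FBN1 were not called.

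In the last list, miR-29 targets of survival, cell cycle and signaling, 4 of 8 were higher and 1 lower, 5 called in all and so near the 56.9% of all genes, with a median of 0.36. KLF4, a transcription factor of epithelial differentiation, was at 289, 338 and 363 and then 1338, 1542 and 1535 (2.16 ± 0.12, adjusted p = 0.000167). HDAC4, a histone deacetylase, was at 1023, 974 and 1052 and then 2276, 2404 and 2425 (1.22 ± 0.08, adjusted p = 0.000192). YY1 and MCL1 rose by 0.47 and 0.57, and the GTPase CDC42, with 5 sites, fell by 0.49 (adjusted p = 0.0037). PIK3R1, CDK6 and PPM1D were not called by limma.

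**Figure D5:**
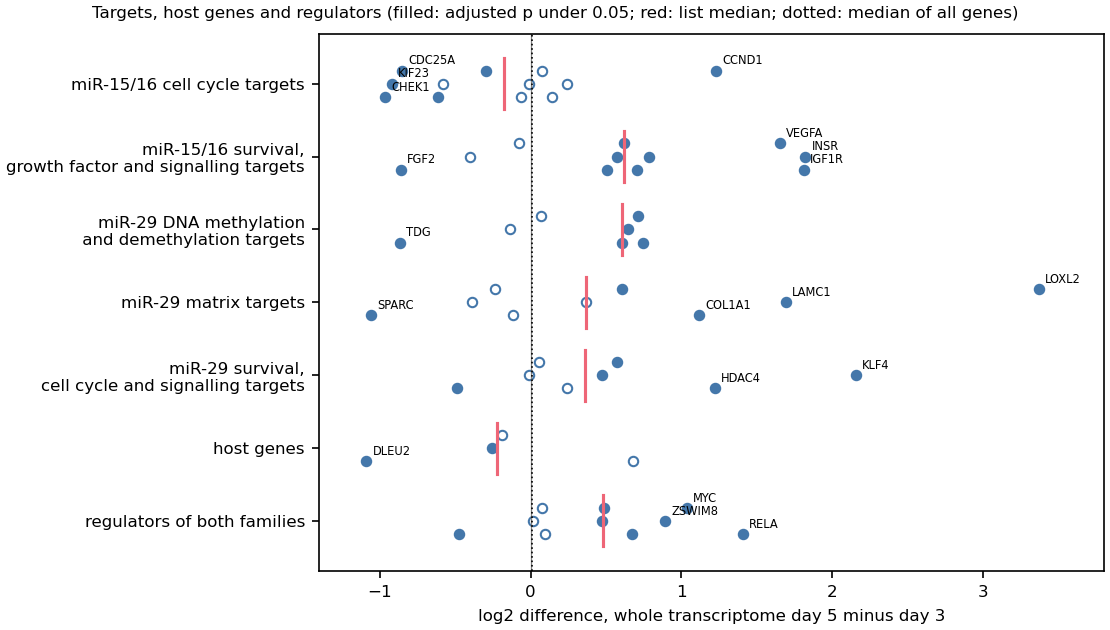
Log2 difference of day 5 minus day 3 in the whole transcriptome for each tested gene of the target, host and regulator lists (1 point a gene, filled where the adjusted p-value was under 0.05), with the list median in red and that of all genes dotted. Cell cycle targets of miR-15/16 lie mostly at or below 0, with CCND1 (1.23), CDK6 (0.24), WEE1 (0.14) and CCND3 (0.08) above it. The growth factor list and the miR-29 lists have medians of 0.36 to 0.62.

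Over all genes, those with sites of either family had slightly higher differences on day 5. The 3640 genes with a miR-15/16 match had a median of 0.21, against 0.07 for the 9407 without, and 43.5% were called higher and 23.2% lower, against 35.5% and 30.0%; over all 13047 genes with a 3′UTR the median was 0.12. The 2491 genes with a miR-29 match had a median of 0.21, against 0.09, with 43.4% higher and 24.0% lower. With 2 or more matches the medians were 0.29 and 0.33. With an 8-mer they were 0.13 and 0.18, below those of all genes with a match. Genes with a match also had longer 3′UTRs, with a median of 2646 bases against 915 for miR-15/16 and 2904 against 1012.5 for miR-29. Within the longest of 3 equal classes of 3′UTRs (2099 bases or more) the medians were 0.21 with and 0.06 without a miR-15/16 match and 0.22 and 0.08 for miR-29. Within the middle class they were 0.24 and 0.12 for miR-15/16, and 0.20 and 0.16 for miR-29, the smallest gap of the 3 classes, with 40.9% and 40.2% called higher. Within the shortest class (709 or fewer) they were 0.15 and 0.04, and 0.13 and 0.05. These are descriptions with no test, and the part of other features of long 3′UTRs was not tested.

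The list of proteins and transcripts known to control the families on day 5 had 6 of 10 higher and 1 lower, beside 29.3% and 27.6% of all genes, with a median of 0.48. MYC, a repressor of both families in lymphoma, was at 3408, 4048 and 4665 and then 8201, 7955 and 8478 (1.03 ± 0.13, adjusted p = 0.00104). RELA, an NF-κB subunit, rose by 1.41 ± 0.15. NFKB1 and YY1 rose by 0.49 and 0.47, and EZH2, a repressor of miR-29 genes, fell by 0.47 (adjusted p = 0.0023). ZSWIM8 and NREP belong to the decay of miRNAs directed by targets. ZSWIM8, the adapter of the ubiquitin ligase, was at 880, 871 and 802 and then 1506, 1541 and 1699 (0.89 ± 0.09, adjusted p = 0.00048). NREP, a known director of such decay for miR-29b whose 3′UTR holds the 8-mer shown above, was at 229, 238 and 217 and then 389, 391 and 315 (0.67 ± 0.11, adjusted p = 0.00324). On the same days miR-29b-3p differed by -0.01 ± 0.15. E2F1, HDAC3 and CUL3, a scaffold of the same ligase, were not called, and no regulator was measured on day 7 here.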

How the data were processed

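The authors trimmed the small RNA reads with Cutadapt, aligned them to miRNA sequences of GRCh37 and, per the methods, applied TMM in edgeR. The deposited log2 values of 2167 miRNAs come from a transform that is not named, and the table of each comparison held the same values. For the whole transcriptome the authors deposited a normalized signal for 38055 genes, per the methods from strand-specific counting on hg38 in CLC Genomics Workbench. All values (100%, tolerance 0.01 reads, widened in proportion above 1000) were whole multiples of 1 read, which gave the reads back, and edgeR (4.0.16) called 12280 and DESeq2 (1.42.0) 11131 genes on them. The authors' own fold changes and p-values were not used. Columns per library without a sample numbered 0.

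limma (3.58.1, R 4.3.3) was fitted to the log2 values and to log2(value + 1) for features of at least 10 in at least 3 libraries, each comparison with its own 6 libraries, except day 7 against day 5 with all 9; Benjamini-Hochberg adjustment was over all features and the threshold was 0.05. CPM is the back-transformed value as a share of the library's miRNA sum, in parts of 1000000. For shares and ratios the test was an exact permutation test, two-sided. The genes named were the members, the other arms, cluster miRNAs, miRNAs of the same seed, the 3 miRNAs most like each family sum, and the lists, of which some genes are not reported here and enter no list count. The members and lists were chosen with earlier results of these data known. The fits were checked on simulated data with known changes. These changes were larger than those of the members, and no shift between library totals was simulated. The check therefore does not cover the choice of scale. Alternatives were library totals, centring on the median of miRNAs of at least 10 CPM, no filter, the block by replicate number, 0.1 in place of 1 as the pseudocount, other sets of libraries, each library left out, edgeR, DESeq2, and 8-mers only. Python 3.11.15, pandas 2.3.3, numpy 2.4.6, scipy 1.17.1 and matplotlib 3.10.9 were used.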

Additional observations from a re-analysis of the deposited data

How the results depend on the processing

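Of the counts and shares, 63 values under other settings and 93 with 1 library left out stayed near the main value or kept its direction. A count could shift somewhat and still be among these. Another 8 and 4 moved further, and 2 with 1 library left out reversed. The cause of the following changes was not tested. On library totals the number of the 9 members called was 1 in place of 0 (day 5 against day 3), 3 in place of 6 (day 7 against day 3) and 2 in place of 7 (day 7 against day 5), and host genes called were 1 in place of 2. With no filter on low values, 1 member was called on day 7 against day 3, 3 matrix targets in place of 5, and 1 host gene. With 1 library left out, members called were 0 to 0, 4 to 6 and 5 to 9 as deposited. On library totals they were 0 to 1, 3 to 4 and 2 to 4. Cell cycle targets called were 4 to 7, survival and growth factor targets 8 to 10, matrix targets 3 to 5 and host genes 1 to 2. The miR-29 share on day 7 differed from that of day 3 by -0.031 to 0.037 percentage points. The settings on library totals with further choices, the pairs of the ratios and LINC-PINT were added after the data had been seen.

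No clear pairing by replicate number was seen. Same-numbered small RNA libraries correlated at -0.08 to 0.12 in their deviations (2 of 9 pairs over 0.1, the best match in 10 of 18 cases). Whole transcriptome libraries correlated at -0.01 to 0.03 (3 of 6). Deviations within so few libraries cannot exclude a pairing, and the paper used a paired t-test for its miRNA read totals. With the replicate block, members called were 0, 6 and 8, on library totals 0, 3 and 2, and host genes 1.

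Several differences turned direction, and not all of them were small. On day 7 against day 3, miR-15a-5p and miR-29c-3p were called higher on the deposited scale. In the same comparison miR-15b-5p, miR-16-5p and miR-424-5p were called lower on library totals. On library totals, day 7 against day 3 gave -0.14 for miR-15a-5p, -0.44 for miR-15b-5p, -0.27 for miR-16-5p, -0.43 for miR-424-5p, -0.14 for miR-29c-3p, -0.35 for miR-424-3p, -0.31 for miR-29b-1-5p and -0.22 for miR-542-3p. Day 7 against day 5 gave -0.10 for miR-15a-5p, -0.33 for miR-15b-5p, -0.21 for miR-16-5p, -0.14 for miR-424-5p, -0.13 for miR-29c-3p, -0.46 for miR-16-2-3p, -0.34 for miR-424-3p, -0.42 for miR-29b-1-5p, -0.38 for miR-450a-5p and -0.33 for miR-542-3p. In the whole transcriptome they gave 0.0013 for E2F3, 0.055 for PPM1D and 0.024 for LINC-PINT. Median centring gave 0.021, 0.037, 0.049 and 0.038 for miR-15a-5p, miR-29b-3p, miR-29c-3p and miR-424-3p on day 5, -0.076 and -0.075 for miR-15b-5p and miR-424-5p on day 7 against day 3, and -0.026, -0.16, -0.033, -0.11, -0.079 and -0.030 for miR-15b-5p, miR-16-2-3p, miR-424-3p, miR-29b-1-5p, miR-450a-5p and miR-542-3p on day 7 against day 5.

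With 1 library left out, day 5 against day 3 ranged from -0.12 to 0.028 for miR-15a-5p, -0.17 to 0.018 for miR-16-5p, -0.094 to 0.19 for miR-497-5p, -0.20 to 0.016 for miR-29a-3p, -0.19 to 0.10 for miR-29b-3p, -0.12 to 0.090 for miR-29c-3p, -0.094 to 0.068 for miR-424-3p, -0.074 to 0.18 for miR-29a-5p and -0.14 to 0.28 for miR-542-3p. On library totals it ranged from -0.027 to 0.11 for miR-195-5p, -0.00083 to 0.15 for miR-497-5p, -0.094 to 0.027 for miR-29b-3p, -0.036 to 0.014 for miR-29c-3p, -0.14 to 0.16 for miR-424-3p, -0.010 to 0.13 for miR-29a-5p and -0.044 to 0.23 for miR-542-3p. Day 7 against day 3 ranged from -0.0040 to 0.10 for miR-15b-5p and -0.010 to 0.12 for miR-424-5p, and on library totals from -0.025 to 0.023 for miR-29a-3p. Day 7 against day 5 ranged from -0.017 to 0.082 for miR-16-2-3p and -0.15 to 0.024 for miR-450b-5p, and on library totals from -0.0079 to 0.027 for miR-29a-5p. The ratios ranged from -0.13 to 0.12 for miR-195-5p over miR-497-5p, -0.21 to 0.024 for the arms of miR-424 and -0.14 to 0.021 for those of miR-29a. Genes ranged from -0.044 to 0.24 for CCND3, -0.088 to 0.050 for PPM1D, -0.28 to 0.059 for BCL2, -0.00015 to 0.17 for E2F1, -0.011 to 0.035 for CUL3 and -0.13 to 0.023 for LINC-PINT.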
